A study of Mus musculus with 23 samples.

Results

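Immediate early response genes were followed in the livers of WT and Pxr-/- male mice given PCN or vehicle. Of the 10 genes, 7 encode transcription factors (Egr1, Fos, Fosb, Jun, Junb, Atf3 and Myc), Ier2 and Ier3 encode small immediate early response proteins, and Dusp1 encodes a phosphatase. They were read from every non-control probe that carries one of these gene names, which were 15 of the 56605 probes on the array. After dim probes were set aside, 12 of these 15 probes remained, so that all 10 genes were measured among 21056 genes. The 3 probes set aside belonged to Fosb, Junb and Ier2, each of which kept at least 1 other probe. Each gene was read from its brightest probe, which was well above background on 22 or 23 of the 23 arrays. The group was not chosen by one measurement, but Egr1 was selected on its signal, picked for its rise in Pxr-/- mice given PCN, so the change with PCN in Pxr-/- mice is given below as a description, with no test, for all 10 genes.

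Immediate early genes are transcribed within minutes of a stimulus from factors that are already present in the cell, before any new protein has to be made. Growth factors, stress and cytokines reach them through kinase cascades such as the MAP kinases, and most of their transcripts are short-lived. In the liver they are known for their rise after partial hepatectomy and injury. Several encode brakes on the same pathway, so that the response is usually transient.

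Each of the 23 mice gave 1 liver RNA sample and 1 Agilent 1-colour array. WT C57BL/6J males were bought at 6 weeks of age and acclimatized for 2 weeks, and Pxr-/- males, which lack a working gene for the nuclear receptor PXR and had been backcrossed on the C57Bl/6J background, were bred in the facility for 10 years. They were injected daily for 4 days with corn oil (CONT) or with 100 mg/kg of pregnenolone 16α-carbonitrile (PCN), a ligand of rodent PXR, in corn oil, and killed 6 h after the final dose, having had free access to food. There were 5 mice in the WT PCN group and 6 in each of the WT CONT, Pxr-/- CONT and Pxr-/- PCN groups. The genotypes came from different colonies, so genotype and colony cannot be told apart. Since whole liver was used, a change in the number of cells of one type and a change of RNA per cell cannot be told apart either.

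On each array, 29510 to 33321 probes were clearly brighter than background, and the number of mice limits the precision. All 10 listed hepatocyte markers were measured, and their summed log2 signal lay between 20.2 and 20.6 on every array. Cyp3a11, the classic PXR target gene, was at a log2 signal of 13.6 ± 0.42 (SD, n = 6) in WT CONT and 17.2 ± 0.16 (SD, n = 5) in WT PCN mice, against 14.3 ± 0.52 and 14.6 ± 0.37 (SD, n = 6 each) in Pxr-/- CONT and Pxr-/- PCN mice. The probe of the PXR gene, Nr1i2, did not separate the genotypes, with means of 11.5 and 11.4 (n = 6 each) in the WT and Pxr-/- CONT mice. Whether that probe lies in the deleted part was not tested. Other cell types also moved with PCN. Of 7 measured neutrophil and monocyte markers, 4 were higher with PCN in WT mice (S100a8, S100a9, Retnlg and Ccr2), and the summed log2 signal of this list lay between 11.5 and 13.0 in WT CONT and between 12.9 and 14.0 in WT PCN mice. In Pxr-/- mice the list lay between 11.4 and 12.8 without PCN and between 13.0 and 14.3 with it. Ngp, a granule protein gene of this list, was not well above background. Of 10 stellate cell markers, the collagen genes Col1a1, Col1a2 and Col3a1 were higher with PCN in WT mice, by 2.18 to 3.17 on the log2 scale, and the summed signal of the list lay between 14.6 and 15.2 in WT CONT and between 15.0 and 15.6 in WT PCN mice. Of 6 cholangiocyte markers Sox9 was higher with PCN in WT mice (0.76 ± 0.21, adjusted p = 0.0109, limma), and of 6 blood markers the platelet gene Pf4 (1.09 ± 0.25, adjusted p = 0.00338, limma). Most of the blood list went the other way, with a positive change for 2 of 6 markers and a median change of -0.30 on the log2 scale. The change was positive for 6 of 7 neutrophil and monocyte, 8 of 10 stellate and 4 of 6 cholangiocyte markers. The summed log2 signal of the cholangiocyte list lay between 10.7 and 12.3 in WT CONT and between 11.8 and 13.0 in WT PCN mice, and that of the blood list, which includes globins, between 16.5 and 18.0 and between 16.6 and 17.3. Cftr of the cholangiocyte list was not well above background. The part of these cell types in the results below was not tested.

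Promoter sequence shows which of these genes share the short elements that immediate early signalling is known to use. RefSeq windows (GRCm38.p6) of the 250 bases before the annotated start were searched for 7 of the 10 genes. No window of Egr1, Ier2 or Myc was searched, so the matches below say nothing of these genes. The search, on both strands, covered the letters TGACGT, which are the core of the cyclic AMP response element and lie within the full element TGACGTCA, the AP-1 element TGANTCA, the TATA box TATAAA, the EGR element GCGNGGGCG and the serum response factor site known as the CArG box. TGACGT was found in Fos, Atf3 and Dusp1, 3 of the 7 windows, and in 6.469% of all 32851 windows. The windows of these 3 genes are shown, 5′ to 3′ on the strand of the gene, with TGACGT (or its complement ACGTCA), TGACGTCA and TATAAA in capitals.
Fos (chr12:85473640-85473889, + strand): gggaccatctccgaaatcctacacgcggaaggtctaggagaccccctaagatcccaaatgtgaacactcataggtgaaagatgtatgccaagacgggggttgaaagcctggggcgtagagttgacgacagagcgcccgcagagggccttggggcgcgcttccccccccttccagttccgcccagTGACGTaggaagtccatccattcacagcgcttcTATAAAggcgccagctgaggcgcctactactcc
Atf3 (chr1:191183334-191183583, - strand): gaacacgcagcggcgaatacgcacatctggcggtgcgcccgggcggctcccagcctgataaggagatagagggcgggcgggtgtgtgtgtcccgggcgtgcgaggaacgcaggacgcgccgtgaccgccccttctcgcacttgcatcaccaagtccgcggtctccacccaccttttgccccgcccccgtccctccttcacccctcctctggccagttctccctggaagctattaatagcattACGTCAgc
Dusp1 (chr17:26508473-26508722, - strand): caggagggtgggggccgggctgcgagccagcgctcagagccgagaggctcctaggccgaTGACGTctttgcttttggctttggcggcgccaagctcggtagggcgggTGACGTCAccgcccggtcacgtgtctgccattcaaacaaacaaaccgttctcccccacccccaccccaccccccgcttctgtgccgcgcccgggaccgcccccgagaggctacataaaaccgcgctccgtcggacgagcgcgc
Counted back from the base before the start as -1, the match began at position -66 in Fos and at position -8 in Atf3. Dusp1 held one match from position -191 and the full element TGACGTCA from position -143, which was present in 1.546% of all windows. The TATA box letters were found in Fos alone among the 7, from position -33 (12.368% of all windows), and the EGR element in Fosb alone, from position -50 (4.697% of all windows). Neither the AP-1 letters (6.749% of all windows) nor a CArG box (1.467% of all windows) lay in any of these 7 windows. A match is a description of the letters and not a binding site, and the search says nothing of sequence outside these windows.

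**Figure D1:**
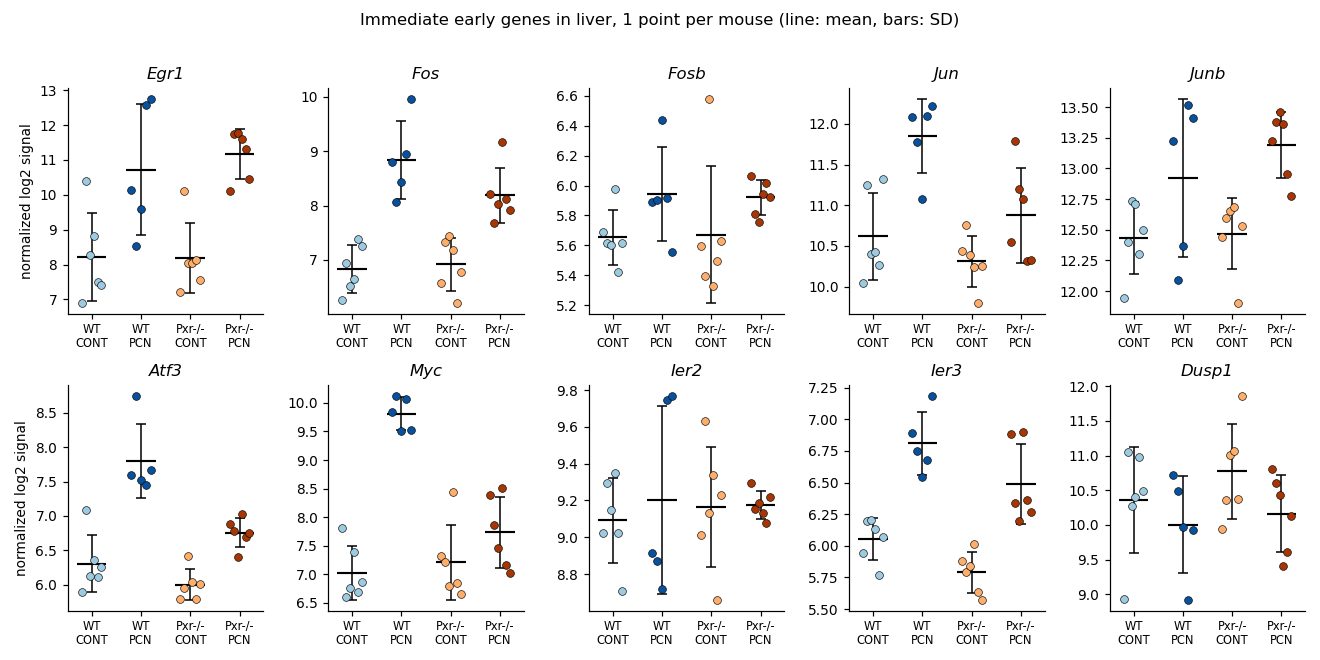
Normalized log2 signal (vertical axes, each gene on its own scale) of the 10 immediate early genes in the 4 groups, 1 point per mouse, with the mean as a line and the SD as bars. The 5 WT PCN mice lie above all WT CONT mice for Fos, Ier3, Atf3 and Myc, and Egr1 is spread over 8.53 to 12.76 within the WT PCN mice alone.

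PCN raised 6 of the 10 genes in WT mice. Myc, Egr1, Fos, Atf3, Jun and Ier3 were called higher, at an adjusted p of at most 0.05 (limma) and a fold change above 1.5, and no gene of the group was lower. Over all 21056 genes, 3.79% were higher and 2.39% lower by the same rule. The signals of WT PCN mice were wholly above those of WT CONT mice for 4 of the 10 genes and wholly below for none, against 5.85% and 6.51% of all genes. The median change of the 10 genes was 1.00 on the log2 scale, against -0.024 over all genes. Neutrophil and collagen transcripts rose in the same comparison, as given above.

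Myc, which encodes a transcription factor of growth and proliferation, was higher in each WT PCN mouse than in any WT CONT mouse. Its log2 signal was 9.84, 10.13, 9.51, 10.07 and 9.52 in the 5 WT PCN mice, and the 6 WT CONT mice lay between 6.60 and 7.81 with a median of 6.81. The WT PCN mice were also close to each other. The fitted change was 2.77 ± 0.30 on the log2 scale (SE), a 6.81-fold rise (adjusted p = 1.85e-06). The probe lies at chr15:61821417-61821476 (mm9, + strand). A second, dimmer probe of Myc gave 1.59 ± 0.17 on the log2 scale.

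Egr1, which encodes a zinc finger transcription factor induced by growth factors and injury, varied far more between mice. The 5 WT PCN mice were at 10.14, 8.53, 9.60, 12.58 and 12.76, and the 6 WT CONT mice lay between 6.88 and 10.39 with a median of 7.88. Thus 2 WT PCN mice stood above all controls, while the other three lay within the control range. The fitted change was 2.48 ± 0.70 on the log2 scale (SE; adjusted p = 0.0134, limma). The rise was uneven between the washing batches of the arrays, a difference that was not tested. It was 4.27 ± 0.80 in washing batch 1, which held WT PCN mice 1, 4 and 5, and 0.20 ± 0.69 (adjusted p = 0.892, limma) in washing batch 2, which held WT PCN mice 2 and 3. The call was also lost with slide as a fixed term (1.97, adjusted p = 0.0644) and when only the compared arrays were fitted (2.46, adjusted p = 0.0574).

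FOS and JUN proteins pair to form the AP-1 transcription factor. Fos, whose promoter window holds both TGACGT and TATAAA, was at 8.79, 8.06, 8.43, 8.96 and 9.97 in the WT PCN mice, and at 6.26 to 7.38 (median 6.79) in the WT CONT mice. No WT PCN mouse overlapped with the controls. The fitted change was 2.00 ± 0.30 on the log2 scale, a 3.99-fold rise (adjusted p = 8.89e-05, limma). Jun was at 12.08, 11.77, 11.08, 12.10 and 12.22, against 10.05 to 11.33 (median 10.41), so that 4 of 5 WT PCN mice were above every control. Its change was 1.24 ± 0.28 on the log2 scale (adjusted p = 0.00263, limma). Within washing batch 2 neither call held, with 1.30 ± 0.43 for Fos (adjusted p = 0.105) and 0.43 ± 0.40 for Jun (adjusted p = 0.563), while within washing batch 1 the changes were 2.52 ± 0.33 and 1.89 ± 0.20.

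The other two AP-1 genes did not pass the test. Junb, at 13.22, 12.09, 12.37, 13.52 and 13.41 in the WT PCN mice and 11.95 to 12.74 in the controls, gave 0.46 ± 0.21 on the log2 scale (adjusted p = 0.118, limma). Of the 5 WT PCN mice, 3 were above every control and mice 2 and 3 lay within the control range. Without WT PCN mouse 2 the change was 0.66 (adjusted p = 0.0284, limma), and a second, dimmer Junb probe gave 0.65 ± 0.20 (adjusted p = 0.0217, limma). The washing batches gave changes of opposite sign for the brighter probe, 1.05 ± 0.19 in batch 1 and -0.31 ± 0.24 in batch 2. Fosb, a FOS relative that is low in most resting tissues, gave 0.31 ± 0.16 (adjusted p = 0.167, limma), with signals of 5.56 to 6.44 in WT PCN and 5.42 to 5.98 in WT CONT mice.

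Atf3 encodes a stress-induced member of the ATF and CREB family, and its window carries TGACGT close to the start. The WT PCN mice were at 7.60, 8.75, 7.52, 7.45 and 7.67, and the WT CONT mice between 5.89 and 7.09 with a median of 6.19. The groups did not overlap, and mouse 2 stood above the other WT PCN mice. The fitted change was 1.53 ± 0.18 on the log2 scale, a 2.88-fold rise (adjusted p = 5.14e-06, limma). The change was 1.53 ± 0.13 in washing batch 1 and 1.57 ± 0.34 in washing batch 2. Myc, too, was close in both, with 2.72 ± 0.40 and 2.86 ± 0.36.

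Of the remaining genes, Ier3 was raised and Ier2 and Dusp1 were not. Ier3, which encodes a stress-inducible protein that modulates cell survival, was at 6.89, 6.75, 6.54, 6.68 and 7.19 in the WT PCN mice, all above the 5.77 to 6.20 of the controls. Its change was 0.75 ± 0.14 on the log2 scale (adjusted p = 4.43e-04, limma), which is close to the 1.5-fold limit and fell below it after normexp background correction (0.57). In washing batch 2 alone it was 0.51 ± 0.18 (adjusted p = 0.117, limma). Ier2, which encodes a nuclear protein of the early growth response, gave 0.092 ± 0.17 with a 95% interval of -0.26 to 0.44 (adjusted p = 0.748, limma). Dusp1 encodes a phosphatase that switches off MAP kinases, and it gave -0.32 ± 0.37 with a 95% interval of -1.09 to 0.46 (adjusted p = 0.592, limma). Its signals were 10.73, 10.49, 9.97, 8.91 and 9.93 in the WT PCN mice and 8.94 to 11.05 in the controls, and the groups overlapped.

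**Figure D2:**
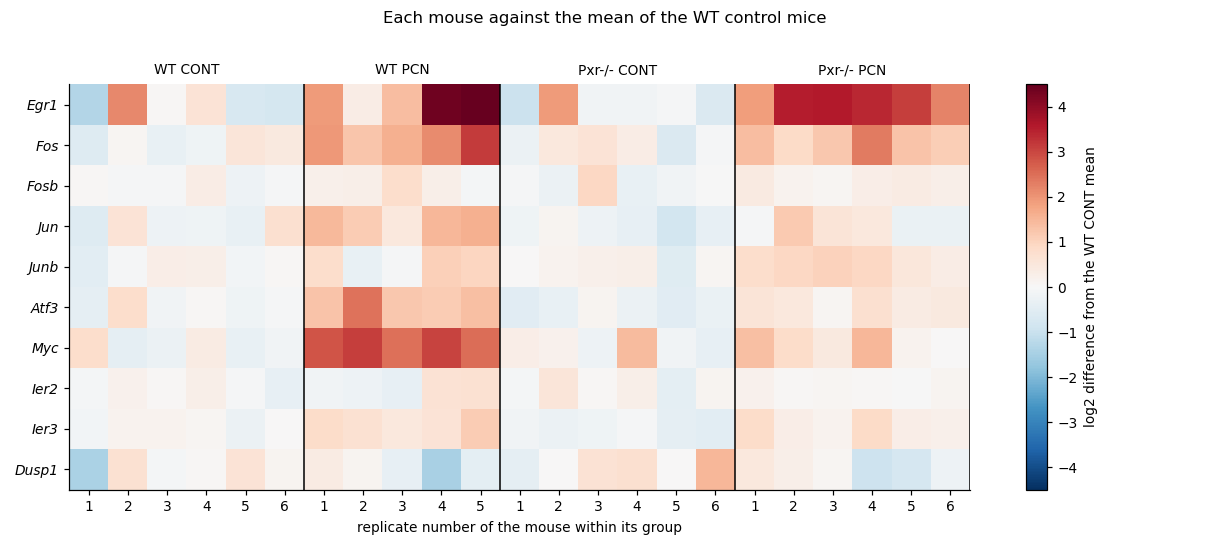
Log2 difference of each mouse (columns, by group and replicate number) from the mean of the WT CONT mice for the 10 genes (rows), with red above and blue below that mean. The red of Myc fills all 5 WT PCN columns, whereas that of Egr1 is deepest in WT PCN mice 4 and 5 and in the Pxr-/- PCN mice.

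In Pxr-/- mice, the fitted change with PCN was positive for 9 of the 10 genes. These values come from the contrast that chose Egr1 and are given as a description. The limits used above were passed by 5 of the 10 genes upwards (Egr1, which was chosen for it, Fos, Ier3, Atf3 and Junb) and by none downwards. For all genes these shares were 1.42% and 0.86%, and nothing is read from the count, since this contrast entered the choice. Within either washing batch alone the count was 0. For Fos, Junb and Ier3 the Pxr-/- PCN mice were wholly above the Pxr-/- CONT mice, 3 of 10 genes where 1.57% of all genes were so. The median change of the 10 genes was 0.63 on the log2 scale, against -0.012 over all genes. The neutrophil markers S100a8, S100a9 and Retnlg were also higher in this comparison, by 2.00 to 2.76 on the log2 scale, as were the stellate cell markers Col1a1, Col1a2 and Col3a1, by 1.22 to 1.96, and the hepatocyte gene Apoa1, by 0.62. All 10 stellate markers had a positive change, as had all 11 Kupffer and macrophage and all 10 endothelial markers, none of these last 2 lists past the limits. It was positive for 6 of 7 neutrophil and monocyte, 5 of 6 cholangiocyte, 6 of 8 lymphocyte, 6 of 10 hepatocyte and 2 of 6 blood markers. The summed log2 signal of the stellate list lay between 14.4 and 15.1 in Pxr-/- CONT and between 14.4 and 15.6 in Pxr-/- PCN mice.

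Egr1 was at 10.10 to 11.78 (median 11.46) in the 6 Pxr-/- PCN mice and at 7.22 to 10.11 (median 8.05) in the 6 Pxr-/- CONT mice. Only Pxr-/- CONT mouse 2 reached the range of the treated mice. The change was 2.97 ± 0.67 on the log2 scale, with 2.61 ± 0.80 in washing batch 1 and 3.34 ± 0.62 in washing batch 2. Fos was at 7.68 to 9.16 (median 8.07) against 6.19 to 7.44 (median 6.98), a change of 1.27 ± 0.29. Atf3 was at 6.40 to 7.04 against 5.79 to 6.42, a change of 0.76 ± 0.17, and Pxr-/- PCN mouse 3 alone fell within the control range. Junb changed by 0.72 ± 0.20 and Ier3 by 0.70 ± 0.13. Junb stayed past the limits in 18 of the 23 fits that left out 1 mouse, and not in those without Pxr-/- CONT mouse 1 or 5 or Pxr-/- PCN mouse 2, 3 or 4, nor without the filter on dim probes or with slide as a fixed term. Myc was at 7.03 to 8.51 (median 7.66) against 6.66 to 8.45 (median 7.03), a change of 0.52 ± 0.29. The groups overlapped up to Pxr-/- CONT mouse 4, at 8.45, while the next control was at 7.32 and 4 of the 6 treated mice were above that. The change was 0.013 ± 0.40 in washing batch 1 and 1.03 ± 0.32 in washing batch 2. Jun changed by 0.56 ± 0.26, Fosb by 0.25 ± 0.15, Ier2 by 0.011 ± 0.16 and Dusp1 by -0.61 ± 0.35.

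**Figure D3:**
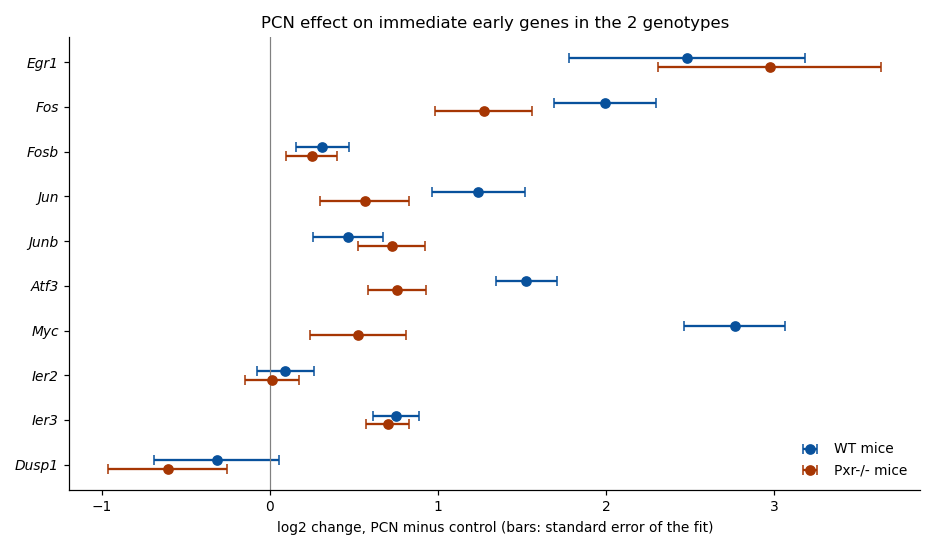
Log2 change with PCN (horizontal axis, fitted value with its standard error) for each of the 10 genes in WT mice (blue) and Pxr-/- mice (brown). Myc lies at 2.77 in WT and 0.52 in Pxr-/- mice, while Ier3 lies at 0.75 and 0.70.

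The difference between the PCN effects of the genotypes was tested next, Egr1 apart. Since genotype and colony cannot be told apart, it cannot show which responses to PCN needed PXR. A gene that did not pass is not shown to respond alike in both genotypes. Among the tested genes of the group, Myc alone passed. The effect in WT mice exceeded that in Pxr-/- mice by 2.24 ± 0.42 on the log2 scale (adjusted p = 0.00417, limma), and by 1.42 ± 0.23 at its second probe (adjusted p = 0.00121, limma). Over all genes, 0.807% had a larger effect in WT mice and 0.242% a larger effect in Pxr-/- mice by the same rule. One side of this difference is the contrast that chose Egr1. Within the washing batches, each with fewer arrays, the Myc difference was 2.71 ± 0.56 (adjusted p = 0.0733, limma) and 1.83 ± 0.49 (adjusted p = 0.136, limma). For Atf3 the difference was 0.77 ± 0.25 (adjusted p = 0.136, limma), for Fos 0.72 ± 0.42 (adjusted p = 0.455) and for Jun 0.68 ± 0.38 (adjusted p = 0.442), none past the threshold. The Jun difference was 1.69 ± 0.29 (adjusted p = 0.0308, limma) in washing batch 1 and -0.49 ± 0.54 in washing batch 2. Leaving out WT CONT mouse 2 brought Atf3 past it (0.89, adjusted p = 0.0481, limma). For Ier3 the difference was 0.050, with a 95% interval of -0.34 to 0.44, and for Junb -0.26, with a 95% interval of -0.86 to 0.34. Egr1 differed by -0.49 ± 0.97, which is given without a test.

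Without PCN no difference between the genotypes passed the test in the 10 genes. None was called between Pxr-/- CONT and WT CONT mice, where 0.228% of all genes were higher and 0.0807% lower in Pxr-/- mice. At an unadjusted p under 0.05 there was likewise none, the nearest being Ier3 at -0.26 ± 0.13. The widest interval was that of Egr1, -1.40 to 1.37 on the log2 scale, and the narrowest that of Ier3, -0.53 to 0.0053. With PCN, 3 of the 10 genes were lower in Pxr-/- than in WT mice, where 1.36% of all genes were lower. Myc was lower by 2.05 on the log2 scale (SE 0.30, adjusted p = 1.93e-04, limma), and all 6 Pxr-/- PCN mice lay below the lowest WT PCN mouse. Atf3 was lower by 1.07 (SE 0.18, adjusted p = 8.48e-04, limma), also without overlap. Of all genes, 3.67% lay wholly below and 3.21% wholly above in this comparison, and of the 10 genes 2 lay below and none above. Jun was lower by 0.98 (SE 0.28, adjusted p = 0.0323, limma), a call that held in 16 of the 23 fits that left out 1 mouse. It was lost without any one of WT PCN mice 1, 2, 4 and 5 or Pxr-/- PCN mice 1, 5 and 6 (adjusted p between 0.0622 and 0.0825), without the filter on dim probes (adjusted p = 0.0553), with slide as a fixed term (-1.07, adjusted p = 0.0700), when only the compared arrays were fitted (-0.97, adjusted p = 0.0697) and in washing batch 2 (-0.36, adjusted p = 0.731). In that batch Atf3 gave -1.28 (adjusted p = 0.156, limma). Of the cell type markers, Sox9 (-0.76 ± 0.21) and Pf4 (-0.85 ± 0.25) were also lower in Pxr-/- than in WT mice given PCN, and the hepatocyte gene Tat (0.73 ± 0.22) and the lymphocyte gene Cd4 (0.77 ± 0.23) were higher, and their part in the result was not tested. These comparisons share the WT PCN arrays with the test of PCN in WT mice and are not independent of it.

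Mice of the same group differed from each other in these genes more than in most. After group and washing batch were fitted, the remaining SD between mice was 1.27 on the log2 scale for Egr1, and 15 of 21056 genes had a larger one. The median gene had a remaining SD of 0.17. Any batch difference that is not shared by all groups, such as the uneven rise of Egr1 in WT mice, is part of the remaining SD. Dusp1 (0.67), Fos (0.55), Myc (0.54) and Jun (0.50) were also at a percentile of 97.2 or above among all genes, and Ier3, with 0.23, was at 74.2. The median percentile of the 10 genes was 95.03, and it was 88.2 with the processed signal scaled to the 75th percentile.

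**Figure D4:**
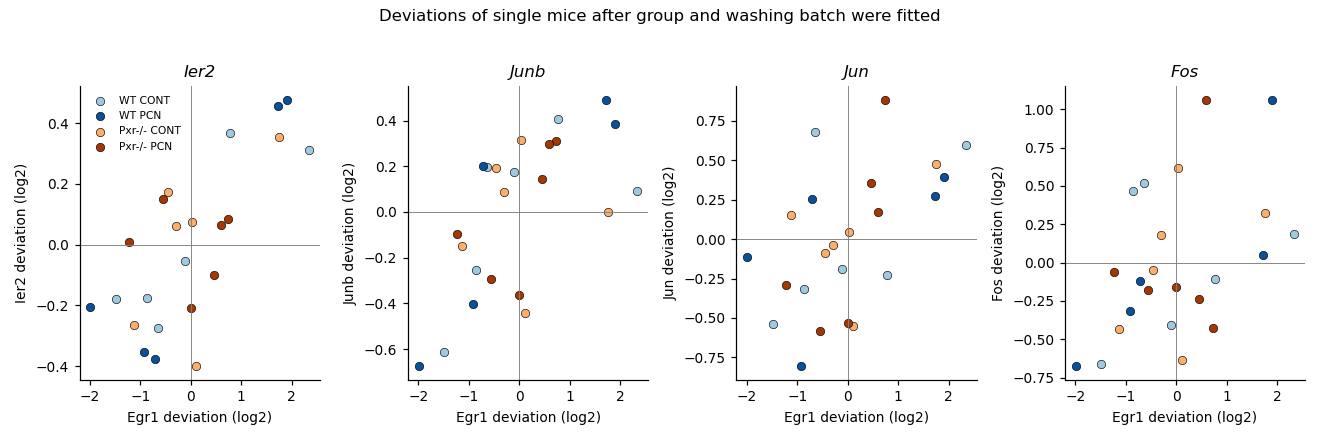
Deviation of each of the 23 mice from its fitted group and washing batch (log2), with Egr1 on the horizontal axis and Ier2, Junb, Jun and Fos on the vertical axes. Points are coloured by group, and Ier2 rises with Egr1 most closely (r = 0.74).

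Part of this spread was shared between genes. Over the 23 deviations, Egr1 was correlated with each of the other 9 genes in turn (permutation tests within groups, two-sided, Benjamini-Hochberg over these 9 relations). Ier2 followed Egr1 most closely, with r = 0.74 (permutation p = 0.00206, adjusted p = 0.0185) and rho = 0.67 (adjusted p = 0.0336). Junb gave r = 0.64 (permutation p = 0.00962, adjusted p = 0.0367) and rho = 0.62 (adjusted p = 0.0428). Both held without the pair of mice with the farthest Egr1 values, WT CONT mouse 2 and WT PCN mouse 5 (r = 0.67 and 0.66). In the washing batches, from the same deviations and without a test, r was 0.85 and 0.61 for Ier2 and 0.68 and 0.60 for Junb. The fit took the batch as a shift shared by all groups, so a PCN effect that differs between batches stays in these deviations. Egr1, Jun and Junb had such uneven effects in WT mice, and the shuffles crossed batches. The part of this batch pattern in the relations was not tested. Jun gave r = 0.54 (permutation p = 0.0122, adjusted p = 0.0367) and rho = 0.54 (adjusted p = 0.0478), with r = 0.68 and 0.46 in the washing batches. Without the pair of mice with the farthest Egr1 values, Jun did not pass (r = 0.44, permutation adjusted p = 0.165). Fos did not pass (r = 0.47, permutation adjusted p = 0.103). Myc (r = -0.18) and Atf3 (r = 0.048) showed no detectable relation to Egr1. Among 15057 genes with a RefSeq name, the 5 whose deviations were most like those of Egr1 were Btg2 (r = 0.85), Abi1 (0.84), Vaultrc5 (0.83), Fubp3 (0.82) and Klf6 (0.80), over the same 23 mice, and Ier2 ranked 18th. These 5 are a description, and Btg2 and Klf6 are themselves immediate early genes.

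The wider family was read from a list of 57 other immediate early genes, 52 of which were measured. With PCN in WT mice 13 of the 52 were higher and 1 was lower, where 3.79% and 2.39% of all genes were so. Their median change was 0.28 on the log2 scale. The largest rise was that of Gadd45b, which encodes a stress and growth arrest protein, from a mean of 7.34 in WT CONT to 11.67 in WT PCN mice (4.35 ± 0.26 on the log2 scale, adjusted p = 1.54e-10, limma). Egr2, another gene of the EGR family, rose by 1.58 ± 0.21 (adjusted p = 1.71e-05), the AP-1 gene Fosl2 by 1.14 ± 0.14 (adjusted p = 5.61e-06) and the orphan nuclear receptor gene Nr4a1 by 1.00 ± 0.19 (adjusted p = 7.25e-04). The gene that was lower was Cyr61, a matricellular protein gene, by -0.59 ± 0.20, named after its value was seen. In Pxr-/- mice 7 of the 52 were higher with PCN and none lower, where 1.42% and 0.86% of all genes were so, with a median change of 0.16. Gadd45b had a different PCN effect between the genotypes, larger in WT mice by 3.12 ± 0.36 (adjusted p = 1.60e-05, limma). It was 1 of the 52, where 0.807% of all genes had a larger effect in WT and 0.242% in Pxr-/- mice, and nothing is read from that count. Between PCN mice, Gadd45b (-3.13), the MAP kinase phosphatase gene Dusp8 (-0.85) and Egr2 (-0.69) were lower in Pxr-/- than in WT mice. These were 3 of the 52, with none higher, where 1.36% of all genes were lower and 0.731% higher.

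**Figure D5:**
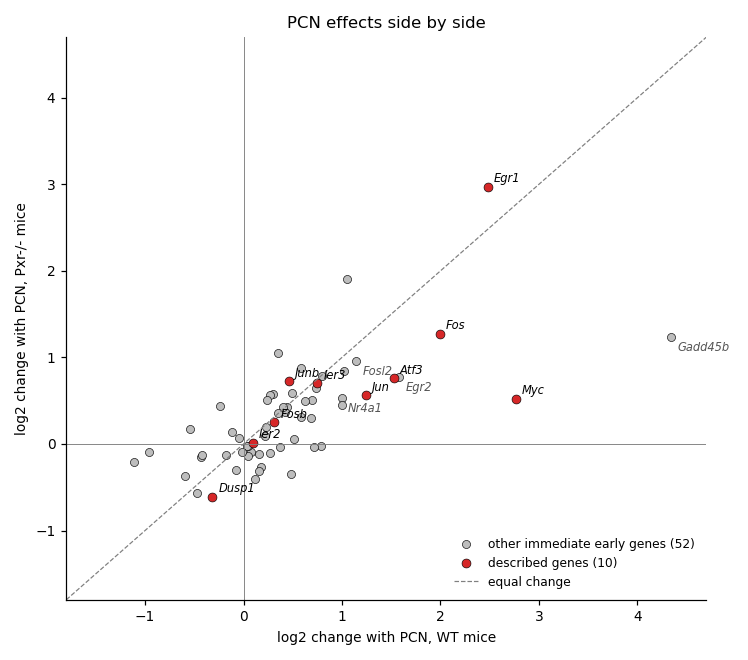
Log2 change with PCN in WT mice (horizontal axis) and in Pxr-/- mice (vertical axis) for the 10 described genes (red) and 52 other immediate early genes (grey), with the line of equal change dashed. Myc and Gadd45b lie far to the right of the line, and Egr1 lies a little above it.

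Transcripts of genes upstream of this response were read from a list of 21 receptors, kinases and constitutive factors that signal to immediate early genes. None passed the test with PCN in WT mice, where 3.79% of all genes were higher and 2.39% lower. For a list of 21 genes this count is close to the share of all genes, and nothing is read from it. Their median change was -0.047 on the log2 scale, and the activity of the encoded proteins was not measured. In Pxr-/- mice 1 of the 21 passed the same limits upwards, where 1.42% of all genes did. It was Egfr, the epidermal growth factor receptor gene, higher by 0.85 ± 0.19 and named after its value was seen. None of these 21 genes differed between the genotypes in its response to PCN by the same rule, where 0.807% and 0.242% of all genes did, with the larger effect in WT and in Pxr-/- mice.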

How the data were processed

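Liver RNA of 23 mice was hybridised to 23 Agilent 1-colour arrays. Per the file headers, the deposited scanner files hold spot intensity from Agilent Feature Extraction 10.10.1.1, on a linear scale and not normalized between arrays. The authors also deposited normalized log2 values, made, per the methods, by filtering the median signal, taking log2, correcting for the washing batch and applying CrossNorm. Groups, replicate numbers and washing batches were taken from the labels, and the 8 slides from the scanner files. A sixth WT PCN mouse was not analysed here.

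From the scanner files, log2 median signals were averaged per probe, a probe was kept if Feature Extraction marked it well above background on over 50% of a group's arrays (32087 of 56605), and signals were quantile normalized. One limma 3.58.1 fit (in R 4.3.3) of all 23 arrays, with group and washing batch, left 18 residual degrees of freedom. Fitted changes allow for the batch and need not equal the difference between group means. P-values were adjusted by Benjamini-Hochberg over all 32087 probes, with a call at an adjusted p of at most 0.05 and a fold change above 1.5. Deviations from the fit were correlated with 100000 permutations within groups. On simulated data 95% of changes of 1 and 99% of changes of 2 on the log2 scale were recovered for PCN in WT mice. There were 3 false calls among 32087 probes. Recovery was not simulated for the immediate early genes apart. Their median remaining SD between mice was 0.44, against 0.17 over all genes, and that of Egr1 was 1.27. The recovered shares therefore do not say how often such a change would be found in these genes.

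The members, gene lists and tests were chosen with earlier results of these data known. All 10 members were named, as were, in the other lists, at most the 4 genes with the largest called change per comparison. Cyr61, Egfr and the cell type markers with a called change were named outside this rule, after their values were seen. One gene that the rule names is not reported here. Other scalings, filters, batch terms, probe choices and left-out mice were tried. Animals were separate mice, and arrays give no count of molecules.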

Additional observations from a re-analysis of the deposited data

Results flagged for a closer look

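Among 40 groups of values (10 genes in 4 groups), 7 held 1 mouse that stood apart from the rest of its group, where chance gives about 5%. In the Pxr-/- CONT group, mouse 2 was apart for Egr1 (10.11, next 8.14), mouse 3 for Fosb (6.58, next 5.63), mouse 4 for Myc (8.45, next 7.32) and mouse 5 was low for Junb (11.90, next 12.44). Pxr-/- PCN mouse 4 was high for Fos (9.16, next 8.21), WT PCN mouse 2 was high for Atf3 (8.75, next 7.67), and WT CONT mouse 1 was low for Dusp1 (8.94, next 10.28). The 4 Pxr-/- CONT mice were different animals for different genes.

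The PCN effect differed between the genotypes by the interaction test for Myc, by 2.24 on the log2 scale (adjusted p = 0.00417, limma), and for Gadd45b, by 3.12 (adjusted p = 1.60e-05, limma), in both cases with the larger effect in WT mice.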

How the results depend on the processing

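With PCN in WT mice, the rise of Myc and Atf3 passed the test under every alternative that was run, and that of Fos and Jun under all but washing batch 2 alone. Over the 4 tested comparisons, 1370 of 1470 values of the 10 genes under other settings were counted as kept, by direction and call. Egr1 was not tested for the difference between PCN effects or between PCN mice. There, closeness to the main value, within 1 SD between mice, counted instead, whatever the sign. Within washing batches the counts were lower. In batch 2 alone, with 2 WT PCN mice, 2 genes were higher with PCN in WT mice, 0 differed in PCN effect and 1 was lower in Pxr-/- PCN mice. With PCN in Pxr-/- mice, where the count includes Egr1 and is a description with no test, 0 genes were past the limits upwards in either batch alone, 2 with slide as a fixed term and 3 after normexp background correction. Leaving out 1 mouse gave 1 to 2 genes with a different PCN effect, 2 where WT CONT mouse 2 was left out. The cause of these changed counts was not tested, and a single batch also holds fewer arrays. The median percentile of the remaining SD was 88.2 with the processed signal. With the deposited log2 values Junb was called higher with PCN in WT mice (0.64, adjusted p = 0.0241, limma) and Fos lower in Pxr-/- PCN mice (-0.86, adjusted p = 0.0346). The relation of Jun to Egr1 no longer passed with the processed signal, the deposited values or slide as a fixed term.

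Values that turned sign had not passed the test or, for Egr1 where PCN effects or PCN mice were compared, were not tested. In washing batch 1, Egr1 gave 1.67 for the difference between PCN effects and -0.76 for Pxr-/- PCN against WT PCN. The other values that turned sign follow, without further values of Egr1 in these 2 comparisons. With the processed signal they were -0.042 for Ier3 (difference between PCN effects) and 0.047 for Egr1 (Pxr-/- CONT against WT CONT), and with median centring 0.027 for Fosb (Pxr-/- PCN against WT PCN). With the deposited log2 values, Pxr-/- CONT against WT CONT gave -0.024 for Fos, -0.028 for Fosb, -0.093 for Junb and -0.066 for Ier2, and Pxr-/- PCN against WT PCN gave -0.13 for Dusp1. With slide as a fixed term, the values without PCN were 0.11 for Egr1 and -0.010 for Junb, those with PCN 0.050 for Ier2 and -0.18 for Dusp1, and r of Dusp1 with Egr1 was 0.088. In washing batch 1, the difference between PCN effects was -0.29 for Fosb, 0.41 for Junb and -0.031 for Dusp1, the genotype difference without PCN 0.91 for Egr1, -0.13 for Fosb and 0.24 for Jun, and with PCN 0.16 for Fosb and -0.17 for Junb. In washing batch 2, PCN in WT mice gave -0.31 for Junb and -0.32 for Ier2, the difference between PCN effects was -0.15 for Fos, -0.49 for Jun, -0.49 for Ier2 and -0.30 for Ier3, the genotype difference without PCN -0.14 for Fos, -0.17 for Junb, -0.11 for Ier2 and -0.19 for Myc, and with PCN 0.0090 for Fos, 0.37 for Ier2 and -0.18 for Dusp1. With only the compared groups, Ier2 gave 0.0031 between PCN mice, and the mean of kept probes gave -0.026 for Junb between CONT mice. The r of Atf3 with Egr1 was -0.047 after normexp, -0.035 without the batch term and -0.23 without the farthest mice, where that of Ier3 was -0.013.

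Leaving out each mouse in turn gave, without PCN, -0.39 to 0.48 for Egr1, -0.057 to 0.22 for Fos, -0.15 to 0.080 for Fosb, -0.094 to 0.13 for Junb, -0.00013 to 0.16 for Ier2 and -0.043 to 0.33 for Myc. Between PCN mice it gave -0.12 to 0.057 for Fosb, -0.11 to 0.11 for Ier2 and -0.12 to 0.34 for Dusp1. The difference between PCN effects ranged over -0.11 to 0.14 for Fosb, -0.038 to 0.18 for Ier2 and -0.037 to 0.14 for Ier3, and PCN in WT mice over -0.028 to 0.19 for Ier2. Egr1, which was not tested there, ranged over -0.093 to 0.95 between PCN mice. Its difference between PCN effects ranged over -0.97 to 0.077.

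The replicate numbers named separate mice, and no label says that a number marks a shared batch. Same-numbered mice had deviations that correlated above 0.1 in 2 of 5 pairs of WT CONT and WT PCN mice (r between -0.058 and 0.14), in 3 of 6 pairs of Pxr-/- CONT and Pxr-/- PCN mice (-0.13 to 0.25), in 4 of 6 pairs of WT CONT and Pxr-/- CONT mice (-0.019 to 0.60) and in 1 of 5 pairs of WT PCN and Pxr-/- PCN mice (-0.11 to 0.26). Mice correlated best with their own number in 0, 2, 4 and 1 of these pairs. Since this was not so for every pair, the numbers were not taken to pair the mice. With replicate number as a block, 6 of the 10 genes were higher with PCN in WT mice, 1 had a different PCN effect and 3 were lower in Pxr-/- PCN mice, the same counts as without it. A fit of only the compared groups could not be made for the difference between PCN effects, which uses all of them.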
